A study of Homo sapiens with 9 samples.

Results

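The cells described here are the RNA-rich and the RNA-poor ends of 6 single-cell libraries of U2OS, a human osteosarcoma line. Rich cells were the 10% of cells with the most unique molecular identifiers (UMIs, each standing for 1 captured transcript) in their own library, and poor cells were the 10% with the fewest. The ranking took in cells that had 500 genes or more and no more than 20% mitochondrial UMIs. The rule gave 2046 rich and 2045 poor cells among 20451 kept cells, with between 272 and 468 of each per library. All cells carried a tagged RPB1, the largest subunit of RNA polymerase II. The tag was HaloTag, a protein that binds fluorescent ligands, or Dendra2, a photoconvertible fluorescent protein, with 3 libraries each. The C-terminal domain (CTD) of RPB1, a tail of repeated heptads, had 25, 52 or 70 repeats (25R, 52R and 70R), with 2 libraries per length. All 6 lines were grown in serum and were treated for 6 days before harvest with 1 µg/ml α-amanitin, which inhibits RNA polymerase II, so rich and poor cells share the drug and the modified polymerase. Each genotype is a single library and no separate cultures are described, so p-values measure the spread between these 6 libraries. The labels list 9 samples because each HaloTag library was sequenced in 2 runs, while the Dendra2 libraries were sequenced in 1 later run, and tag and sequencing campaign therefore cannot be told apart.

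The amount of RNA in a cultured cell grows with cell size and with progress through the division cycle. Cells in G2 hold a doubled genome and more cytoplasm than cells newly born into G1, and the synthesis of most mRNAs scales with cell volume, so that concentrations stay nearly constant while total amounts rise. Some transcripts are known to depart from that scaling, among them the periodic genes of S phase and mitosis, and transcripts retained in the nucleus. The comparison asks which transcripts take a larger or a smaller proportion of the RNA in cells at the upper end than in cells at the lower end of the same library.

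The totals chose the groups and are given as a description. Median UMIs per rich cell were 29132.5, 25644 and 21339.5 in HaloTag 25R, 52R and 70R and 31586, 33575 and 36049 in Dendra2 25R, 52R and 70R. Median UMIs per poor cell were 7592, 6892.5 and 5072 in HaloTag 25R, 52R and 70R and 5844, 8128 and 7093.5 in Dendra2 25R, 52R and 70R. Summed per cell, rich cells held between 4.22 and 6.02 times the UMIs of poor cells of their library. The rich group took between 18.02% and 20.02% of all UMIs of its library and the poor group between 3.32% and 4.43%. The thresholds differed between libraries. The lowest rich cell had between 18196 and 31030 UMIs and the next cell below it between 18183 and 31022, while the highest poor cell had between 6087 and 10179 UMIs and the next cell above it between 6091 and 10180.

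Droplets with 2 cells can sit among the rich cells. No doublet caller was run, and between 23.6% and 50.6% of rich cells, and no poor cell, had more than 2 times the median UMIs of their library. Rich cells from the 90th to the 96th percentile, without the top 4%, are given beside several results. They leave out cells by rank and do not identify doublets. The matrices used hold called cells only, so RNA free in the droplets could not be measured and its part in the differences was not tested. The poor group held between 4 and 16 cells under 1000 genes, and between 7 and 21 under 2000 UMIs.

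Kept cells had a median of 10812 to 18739 UMIs per library, and between 52553686 and 58442223 UMIs in all. The filters removed between 2.01% and 3.03% of barcodes. Pairs of libraries shared at most 0.224% of the barcodes of the smaller library. The labels call the cells epithelial and the tissue bone. CDH1, KRT5, CLDN3, CLDN7, ESRP1 and ESRP2 were too low to be tested. The 13 epithelial markers together summed to between 32.0 and 67.8 CPM (UMI counts scaled to the same total in every summed group) in rich cells and between 38.8 and 159.5 CPM in poor cells. The 13 osteoblast and mesenchymal markers summed to between 2963 and 3851 CPM in rich cells and between 2495 and 4477 CPM in poor cells, most of it VIM, and IBSP and SP7 were too low to be tested. Leukocyte markers summed to at most 19.0 CPM in rich cells and 22.2 CPM in poor cells, and endothelial markers to at most 2.80 CPM in rich cells and 3.83 CPM in poor cells.

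Most rich cells scored as G2 or mitotic cells. Phases were called from scores of G1/S and of G2 and mitosis genes after each cell had been thinned to 2000 UMIs, and the ranking left out the genes of both lists. G2/M calls made up 64.9%, 72.0% and 70.5% of rich cells in HaloTag 25R, 52R and 70R and 81.1%, 77.1% and 71.7% in Dendra2 25R, 52R and 70R. Among poor cells they made up 24.0%, 24.0% and 27.8% in HaloTag 25R, 52R and 70R and 51.7%, 41.6% and 35.5% in Dendra2 25R, 52R and 70R. The lowest rich share was above the highest poor share. G2/M calls averaged 72.9% ± 5.59 of rich cells and 34.1% ± 11.1 of poor cells (SD, n = 6 libraries), higher in rich cells in 6 of 6 libraries, by 38.8 points (exact two-sided permutation test over sign flips, p = 0.0312, the smallest it can give, adjusted p = 0.0391 over 5 values). With rich cells from the 90th to the 96th percentile the difference in G2/M calls was 39.8 points. S calls averaged 16.6% ± 2.34 of rich cells and 18.4% ± 6.27 of poor cells, a difference of -1.82 points that was less than the spread between libraries (exact permutation p = 0.406, adjusted p = 0.406). The S difference was 2.60 points over the HaloTag libraries and -6.23 points over the Dendra2 libraries. Between 46.9% and 54.6% of cells lay within 0.05 of a phase boundary, so these shares describe ranges of scores.

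In deciles of total UMIs, ranked on all genes and described without a test, the median share of cells called G1 was 47.9% in the first decile, 24.6% in the fifth and 10.7% in the tenth. The share called S was 21.1% in the first, 32.3% in the seventh and 16.0% in the tenth. The share called G2/M was 31.0% in the first decile, 42.7% in the fifth, 55.3% in the eighth and 72.2% in the tenth. S calls thus peaked in the middle of the ranking and G2/M calls at its upper end.

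Rich cells had more genes detected per cell at equal depth. After thinning to 2000 UMIs, rich cells had 1093 ± 16.8 genes per cell and poor cells 1035 ± 17.2 (SD, n = 6 libraries), with 57.4 genes more in rich cells and a difference of the same sign in 6 of 6 libraries (exact permutation p = 0.0312, adjusted p = 0.0391). With rich cells from the 90th to the 96th percentile the difference was 58.8 genes. Mitochondrially encoded transcripts took a smaller share in rich cells. Their mean share per cell, in cells ranked by nuclear genes, was 6.47% ± 1.32 in rich cells and 8.38% ± 1.96 in poor cells, lower in rich cells in 6 of 6 libraries, by 1.91 points (exact permutation p = 0.0312, adjusted p = 0.0391). Ranking by nuclear genes alone lowers the share in rich cells by construction, and the difference was -1.32 points when all genes ranked the cells and -1.33 points when the share was taken within the genes that did not rank them. Cells with more than 10% mitochondrial UMIs made up between 0.727% and 27.2% of rich cells and between 15.3% and 59.6% of poor cells. Without all such cells the difference was -0.11 points and had no common sign over the libraries (exact permutation p = 0.4375). That cut was made on the share itself and took out more poor than rich cells. A smaller difference therefore follows in part from the cut. Without HaloTag 70R, which had the largest difference, the difference in mitochondrial share was -1.58 points. Ribosomal protein genes took 23.4% ± 1.53 of UMIs in rich cells and 25.9% ± 1.62 in poor cells, in cells ranked by all other genes. That difference of -2.54 points was -1.05 points when all genes ranked the cells, and was negative in 6 of 6 libraries both ways (exact permutation p = 0.0312, adjusted p = 0.0391).

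**Figure D1:**
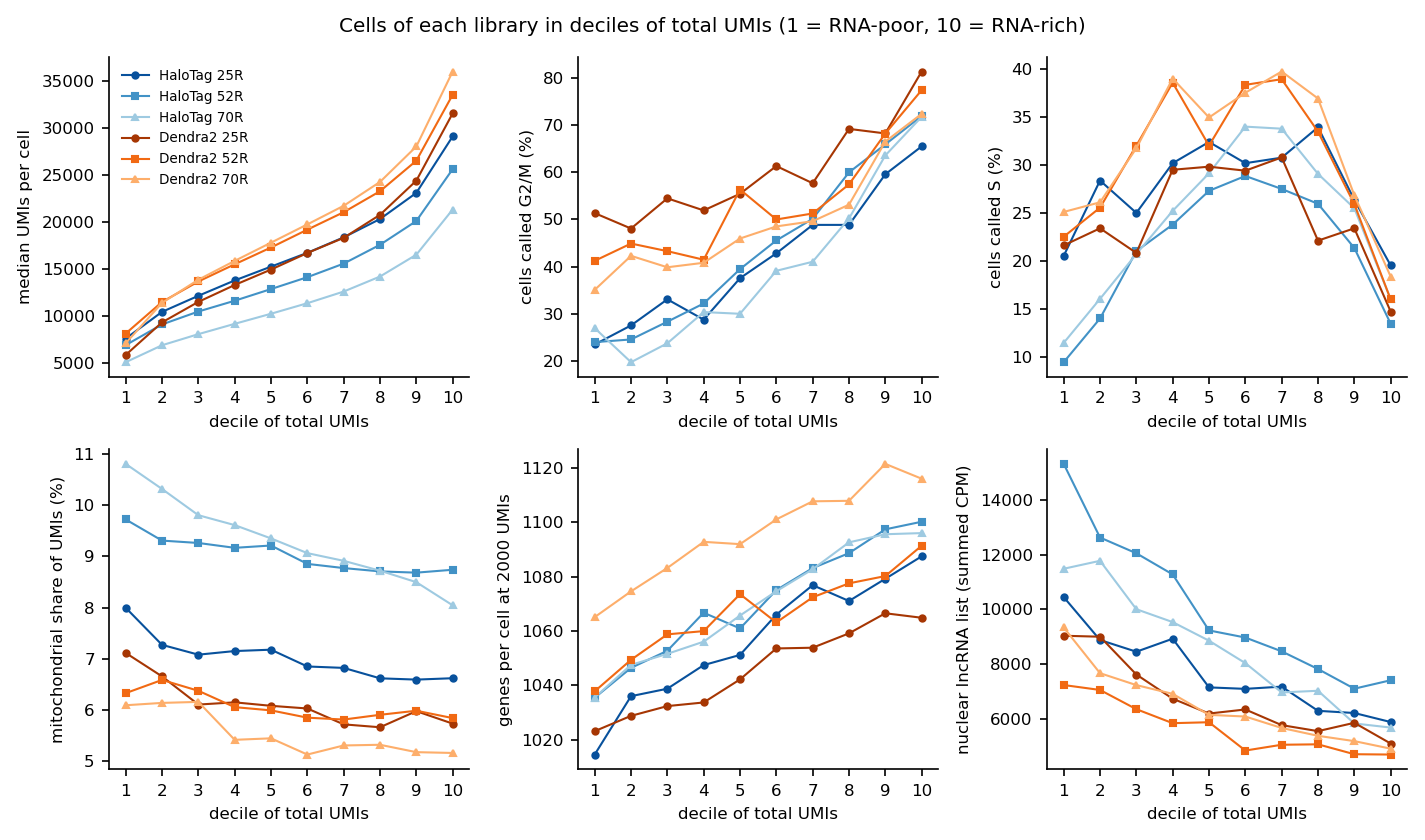
Cells of each library in 10 deciles of total UMIs, from 1 (RNA-poor) to 10 (RNA-rich), with median UMIs per cell, share of cells called G2/M and S (%), mean mitochondrial share of UMIs (%), genes per cell at 2000 UMIs and summed CPM of 12 nuclear long noncoding RNAs; each line is 1 library, HaloTag in blue and Dendra2 in orange. The median G2/M share is 31.0% in the first decile and 72.2% in the tenth, and the noncoding RNAs' median sum is 9894 CPM in the first and 5382 CPM in the tenth.

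For single genes, counts were summed over the rich and over the poor cells of each library. Each gene was tested in cells ranked only by genes it is not grouped with, so no gene took part in choosing the cells it was tested in. With edgeR's quasi-likelihood test and the library as a block, 2369 of 13026 genes (18.2%) took a larger share of the RNA in rich cells and 2196 (16.9%) a smaller one, at a Benjamini-Hochberg adjusted p under 0.05. The log2 difference between rich and poor cells had a median of -0.01 over all genes tested. It refers to the share of the RNA, so a gene at 0 keeps pace with the total. Only 1 of the 13026 genes had fewer UMIs per cell in rich than in poor cells of all 6 libraries, and none of the 5899 genes with a mean of at least 20 CPM did. The groups were chosen by total UMIs, so this count follows largely from that choice and says little about single genes. Higher and lower refer below to the share of the RNA, unless UMIs per cell are named. CPM was higher in rich cells of all 6 libraries for 15.3% of genes tested and lower for 13.7%. How many genes tested have groups that do not overlap was not counted, so that trait is given for single genes only. Long noncoding RNAs stood lower than mRNAs. Of 1310 tested, 49 were higher and 460 lower in rich cells, with a median of -0.37, whereas of 11671 protein-coding genes 2317 were higher and 1725 lower, with a median of 0.02.

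**Figure D2:**
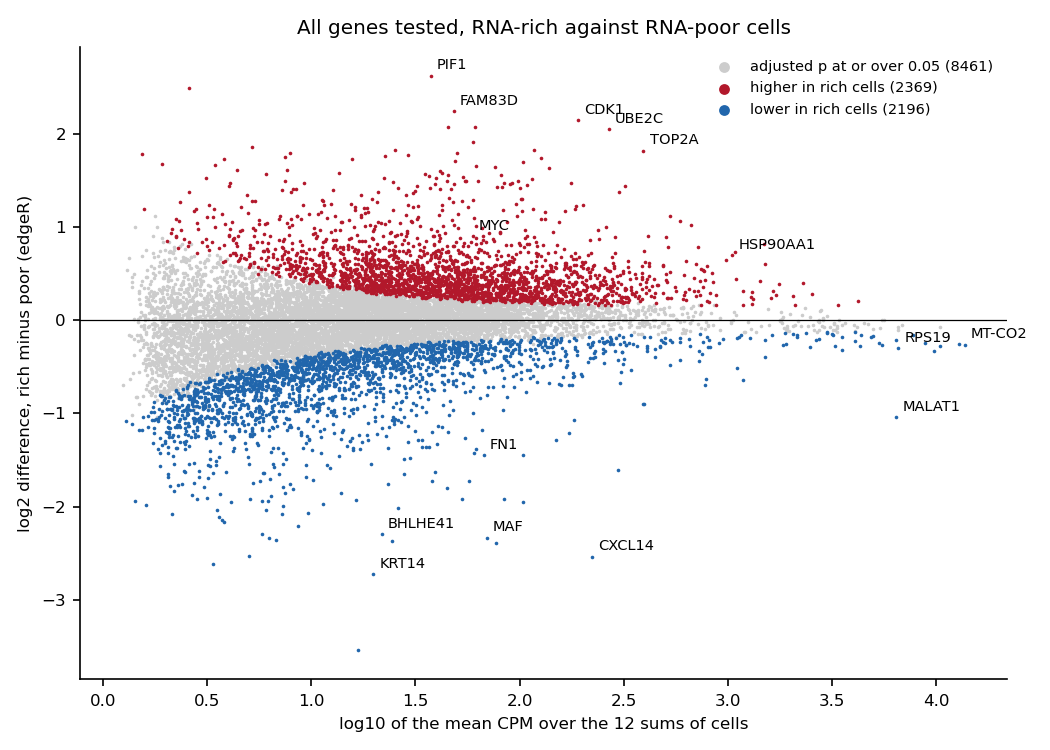
Log2 difference of the share of RNA, rich minus poor (edgeR, y axis), against log10 of the mean CPM over the 12 sums of cells (x axis); each point is 1 of 13026 genes, red where higher and blue where lower in rich cells at an adjusted p under 0.05. Genes of mitosis such as CDK1 (2.15) and TOP2A (1.82) lie at the top, CXCL14 (-2.53) and IGFBP5 (-2.39) near the bottom, and MALAT1 (-1.04) stands out among abundant transcripts.

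Genes of chromosome condensation, spindle assembly and mitotic exit had the highest median of the lists. All 54 genes of the G2 and mitosis list passed the test as higher, with a median log2 difference of 1.36, beside 18.2% of all genes tested. In rich cells without the top 4% the count was also 54 of 54, with a median of 1.38. The list also served to call phases, and its members summed to between 8573 and 11659 CPM in rich cells and between 3190 and 5971 CPM in poor cells.

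CDK1, the kinase that starts mitosis, had a lowest, median and highest level of 212, 327 and 379 CPM in the rich cells of the 6 libraries, against 33.1, 78.3 and 104 CPM in poor cells. The 2 groups did not overlap, and the log2 difference was 2.15 ± 0.15 (SE; edgeR adjusted p = 7.69e-10). TOP2A, the topoisomerase that untangles sister chromatids, stood at 504, 574 and 781 CPM in rich cells and 126, 181 and 229 CPM in poor cells, again without overlap and with a log2 difference of 1.82 ± 0.13 (adjusted p = 7.4e-10). UBE2C, the ubiquitin-conjugating enzyme of the anaphase-promoting complex, had 341, 428 and 505 CPM in rich cells and 51.5, 108 and 152 CPM in poor cells. Its log2 difference was 2.05 (adjusted p = 8.03e-11), and rich cells of every library were above poor cells of every library.

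PIF1 and FAM83D had the largest differences among genes with a mean of at least 20 CPM. PIF1, a DNA helicase, had 51.2, 63.9 and 76.7 CPM in rich cells and 4.61, 9.19 and 19.1 CPM in poor cells, a log2 difference of 2.62 ± 0.16 (adjusted p = 1.89e-10). FAM83D, a spindle protein, had 67.8, 78.1 and 96.6 CPM in rich cells and 10.9, 16.2 and 24.0 CPM in poor cells, a log2 difference of 2.24 ± 0.13 (adjusted p = 5.45e-11). Neither gene's groups overlapped. Counted per cell, PIF1 had 29.7 times and CDK1 20.4 times as many UMIs in rich cells, where total UMIs differed by 4.22 to 6.02 times. The remaining 7 of the 12 genes with the largest differences have roles in chromosome segregation. CDCA2 recruits a phosphatase to anaphase chromatin (2.07), HJURP loads the centromeric histone (2.07), CDCA8 is a subunit of the chromosomal passenger complex (1.91), and TTK is the checkpoint kinase at kinetochores (1.77). KIFC1 and KIF23 are kinesins of the spindle (1.83 and 1.82) and CKAP2L is a spindle-associated protein (1.79). In each of these 7 genes the lowest rich library was above the highest poor library, with adjusted p between 1.29e-09 and 7.38e-08. These genes were picked for their large differences, so the lack of overlap is no separate result.

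Promoters of mitotic genes are known for CCAAT boxes and for a cell cycle homology element, read here as TTTGAA, and the 250 bases before the start were searched on both strands. Windows were taken from RefSeq on GRCh38.p14, for genes with a single promoter there. TTTGAA was found in 21 of 38 promoters of the G2 and mitosis list (55.3%), against 530 of 6959 promoters of all genes tested (7.62%). CCAAT was found in 27 of 38 (71.1%), against 36.3% of all genes tested, and both together in 19 of 38, against 3.43% of all genes tested. The E-box CACGTG was found in 13.2% of the mitosis promoters, against 9.33% of all, and in 6 of 16 promoters of the MYC target list (37.5%). The 2 motifs may share letters, as in MKI67. Of the 12 genes with the largest positive differences 7 had a single promoter, all 7 with CCAAT and 6 with TTTGAA, while of the 12 with the largest negative differences 8 had one, 3 with CCAAT and 0 with TTTGAA. The lists were chosen with results of these data known, so the shares describe these promoters and test nothing. The 4 windows below belong to the genes with the largest differences among 10 windows, of 40, that overlap no annotated exon. They are printed 5′ to 3′ in the direction of the gene, ending at the base before the start, with CCAAT and TTTGAA and their reverse complements ATTGG and TTCAAA in capitals. Their positions are chr6:33391573-33391822 for KIFC1 and chr10:92592880-92593129 for KIF11, both on the plus strand, and chr17:40417897-40418146 for TOP2A and chr10:128126424-128126673 for MKI67, both on the minus strand.
KIFC1: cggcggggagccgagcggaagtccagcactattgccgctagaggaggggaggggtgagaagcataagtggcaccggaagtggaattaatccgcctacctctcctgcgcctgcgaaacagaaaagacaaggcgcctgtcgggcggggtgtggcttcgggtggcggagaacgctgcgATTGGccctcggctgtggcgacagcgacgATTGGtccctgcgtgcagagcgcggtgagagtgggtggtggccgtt
TOP2A: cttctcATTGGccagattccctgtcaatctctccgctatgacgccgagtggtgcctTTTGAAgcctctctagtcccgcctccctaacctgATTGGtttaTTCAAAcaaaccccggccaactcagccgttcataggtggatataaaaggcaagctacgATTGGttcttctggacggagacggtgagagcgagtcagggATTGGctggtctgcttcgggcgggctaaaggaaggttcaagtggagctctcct
MKI67: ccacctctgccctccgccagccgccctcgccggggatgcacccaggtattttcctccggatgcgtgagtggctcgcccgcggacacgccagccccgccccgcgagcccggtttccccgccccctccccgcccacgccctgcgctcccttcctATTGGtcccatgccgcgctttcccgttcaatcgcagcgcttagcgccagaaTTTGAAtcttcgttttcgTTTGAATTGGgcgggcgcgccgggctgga
KIF11: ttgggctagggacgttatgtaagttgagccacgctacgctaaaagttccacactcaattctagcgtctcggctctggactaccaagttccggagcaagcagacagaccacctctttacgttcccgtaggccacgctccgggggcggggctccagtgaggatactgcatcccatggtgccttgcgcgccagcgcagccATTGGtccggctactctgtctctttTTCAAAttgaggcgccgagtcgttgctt
The TOP2A window holds 4 CCAAT and 2 TTTGAA matches, the MKI67 window 2 of each, the KIF11 window 1 of each, and the KIFC1 window 2 CCAAT matches only. MKI67, the proliferation antigen, and KIF11, a spindle kinesin, are named for these windows, outside the rule for named genes. MKI67 had 197, 250.2 and 316 CPM in rich cells and 53.2, 84.8 and 198 CPM in poor cells (log2 difference 1.46, adjusted p = 7.3e-08), and KIF11 had 75.1, 110.1 and 155 CPM in rich cells and 21.0, 37.99 and 63.7 CPM in poor cells (log2 difference 1.43, adjusted p = 7.84e-08).

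**Figure D3:**
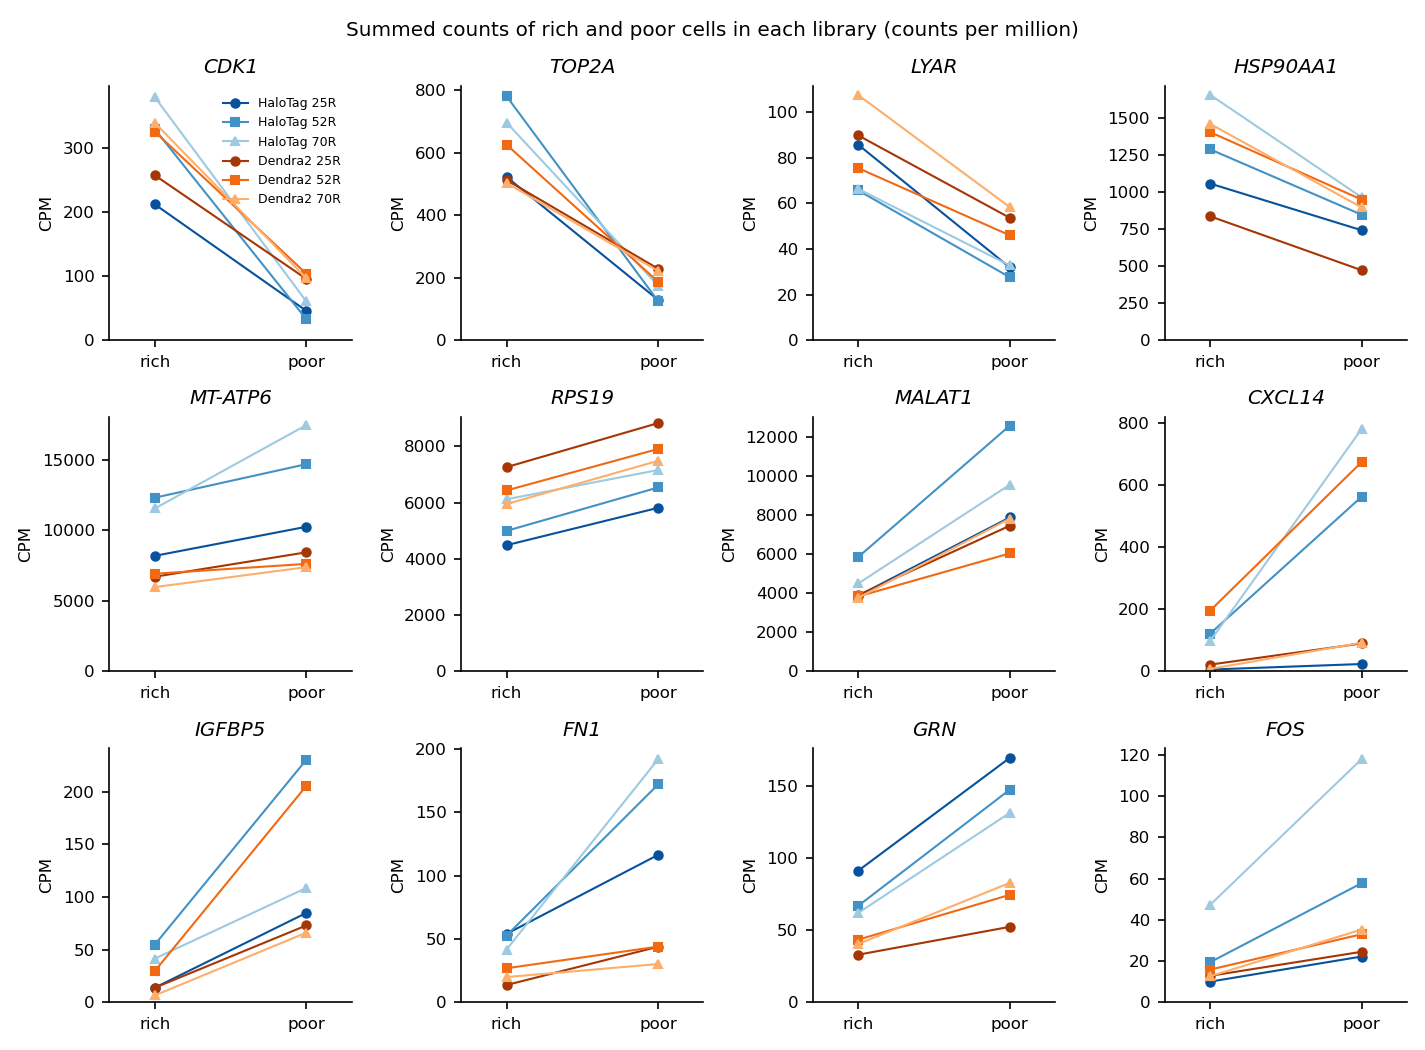
CPM (y axis, linear, from 0) of 12 genes in the rich cells (left) and the poor cells (right) of each library; each line is 1 library, HaloTag in blue and Dendra2 in orange. CDK1, TOP2A, LYAR and HSP90AA1 are higher in the rich cells of all 6 libraries, and the other 8 genes are lower in the rich cells of all 6.

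Genes of DNA replication were higher by less. Of 43 genes of the G1/S list, 36 passed the test as higher in rich cells and 0 as lower, with a median log2 difference of 0.60. The shares over all genes tested were 18.2% higher and 16.9% lower. Their sum ran between 2890 and 3501 CPM in rich cells and between 1600 and 2880 CPM in poor cells. Across deciles, the median of that sum was 2136 CPM in the first, 3862 CPM in the sixth and 3270 CPM in the tenth, so it peaked before the rich group. RRM2, the small subunit of ribonucleotide reductase, had 105, 123 and 199.7 CPM in rich cells and 36.8, 53.6 and 115 CPM in poor cells, with a log2 difference of 1.17 ± 0.15 (adjusted p = 3.25e-06). The ranges overlapped, but rich cells were higher in 6 of 6 libraries. CDC45, part of the replicative helicase, differed by 1.23 (adjusted p = 1.28e-06). NASP, the histone chaperone and the most abundant member, differed by 0.35 (adjusted p = 0.00018), and by 0.054, without passing, when cells of the 10th to the 20th percentile stood for the poor end.

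Replication-dependent histone mRNAs, which are made in S phase and as a rule lack a poly(A) tail, did not share a direction. Of 30 genes 21 could be tested, with 3 higher and 4 lower in rich cells and a median of -0.07. These counts were near the 18.2% higher and 16.9% lower among all genes tested. Oligo(dT) priming captures such mRNAs poorly, and near-identical copies leave their counts uncertain. HIST1H1C, a linker histone and the most abundant member, had 170.2, 274 and 311 CPM in rich cells and 181, 399 and 458 CPM in poor cells, and was lower, at -0.47 ± 0.07 on the log2 scale (adjusted p = 2.04e-05). HIST1H4C was higher by 1.19 (adjusted p = 0.000211), over levels that ranged from 14.1 to 844 CPM among the rich groups and from 1.62 to 641 CPM among the poor groups. HIST1H4E was lower, at -0.82 (adjusted p = 0.000124).

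**Figure D4:**
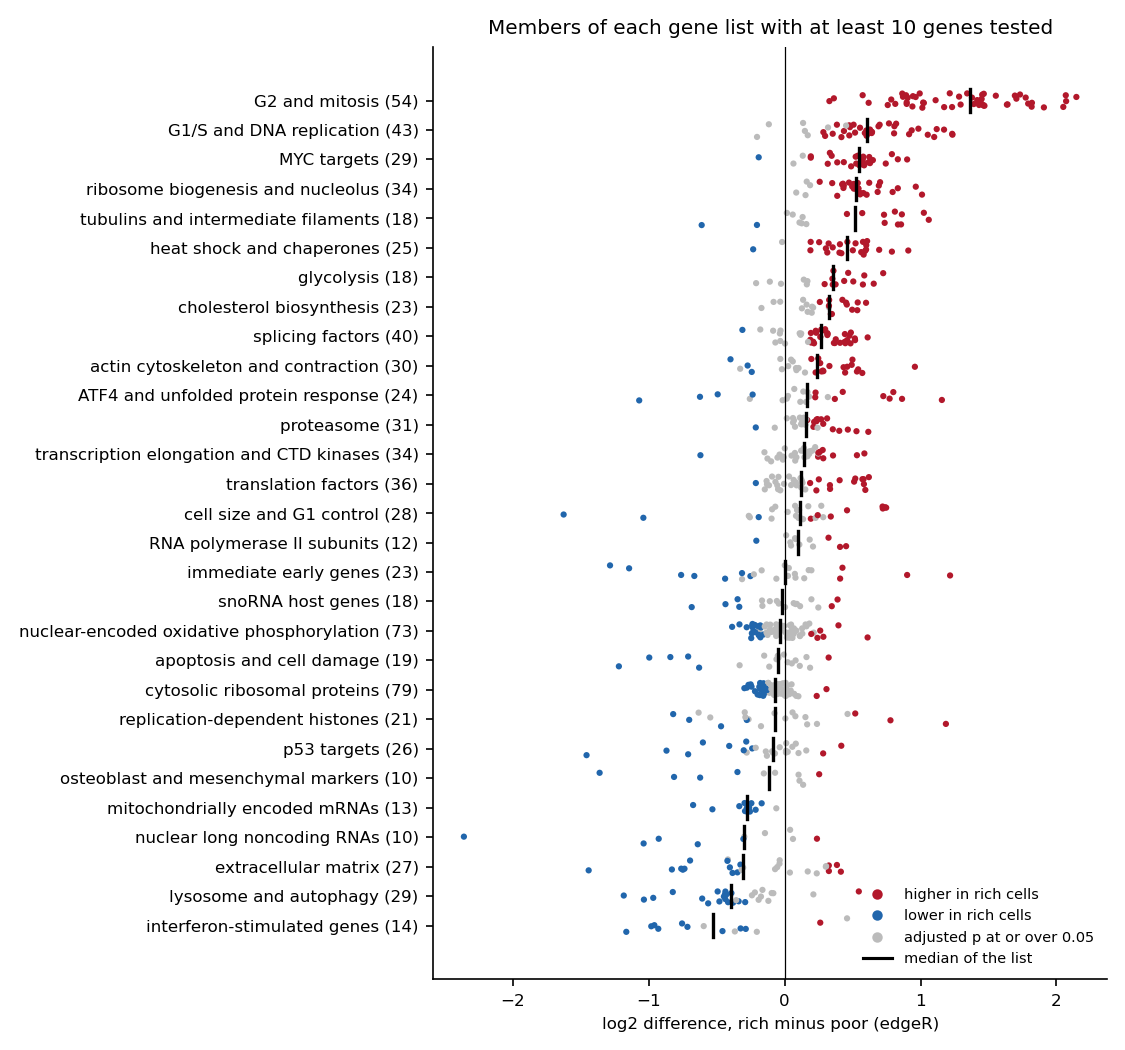
Log2 difference of the share of RNA, rich minus poor (x axis), of the members of each gene list with at least 10 genes tested, the number tested in brackets; points are genes, red where higher and blue where lower in rich cells at an adjusted p under 0.05, and the black bar is the median. Medians run from 1.36 for G2 and mitosis to -0.53 for interferon-stimulated genes.

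Rich cells gave a larger share of their RNA to the machinery that builds ribosomes. Of 34 genes of ribosome biogenesis and the nucleolus, 30 were higher in rich cells and 0 lower, with a median of 0.52. Over all genes tested 18.2% were higher and 16.9% lower. LYAR, a nucleolar factor of rRNA processing, had 65.6, 80.5 and 107 CPM in rich cells and 27.6, 39.4 and 58.3 CPM in poor cells, without overlap, and a log2 difference of 1.01 ± 0.09 (adjusted p = 4.19e-08). MRTO4, a ribosome assembly factor, had 116, 153 and 193 CPM in rich cells and 65.6, 89.1 and 109 CPM in poor cells, also without overlap, and a log2 difference of 0.83 (adjusted p = 1.93e-08). RRS1, which assembles the large subunit, and NPM1, the abundant nucleolar phosphoprotein, differed by 0.79 and 0.39 (adjusted p = 6.3e-07 and 0.000225). In the 3 HaloTag libraries alone NPM1 differed by 0.21 and missed the threshold (adjusted p = 0.0626).

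MYC targets followed the same direction. Of 29 genes on that list, 5 of them also on the nucleolar list, 26 were higher and 1 lower, with a median of 0.55. All genes tested had 18.2% higher and 16.9% lower. MYC itself, the transcription factor of growth genes, had 55.9, 80.4 and 95.9 CPM in rich cells and 20.5, 44.7 and 62.8 CPM in poor cells. It was higher in 6 of 6 libraries, by 0.90 ± 0.10 on the log2 scale (adjusted p = 3.62e-07), though the highest poor library overlapped the lowest rich one. PA2G4, a growth-regulated RNA-binding protein, had 444, 469.6 and 586 CPM in rich cells and 246, 311 and 362 CPM in poor cells without overlap, a log2 difference of 0.74 (adjusted p = 1.93e-08). EIF4EBP1, the repressor of cap-dependent translation that mTORC1 inactivates, was higher by 0.72 (adjusted p = 2.61e-07).

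Ribosomal protein mRNAs had more members lower than higher. Of 79 genes, 2 were higher and 24 lower in rich cells, with a median of -0.07, and the differences spanned -0.30 to 0.31. Among all genes tested 18.2% were higher and 16.9% lower. RPS19 had 4488, 6036 and 7263 CPM in rich cells and 5816, 7325 and 8829 CPM in poor cells, and was lower, at -0.30 ± 0.05 (adjusted p = 5.76e-05). RPL13A and RPS27 differed by -0.28 and -0.27 (adjusted p = 0.000203 and 0.00012). Rich cells held 4.01 times as many RPS19 UMIs per cell as poor cells, while total UMIs per cell differed by 4.22 to 6.02 times. Processed pseudogenes of these genes leave single counts uncertain. Of 36 translation factors 13 were higher and 1 lower, with a median of 0.12. Initiation factors had the largest differences, with EIF5 higher by 0.62 (adjusted p = 1.82e-07), EIF1AX by 0.59 (adjusted p = 4.37e-06), EIF2S1 by 0.58 (adjusted p = 8.93e-07) and EIF3B by 0.58 (adjusted p = 2.38e-06).

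Most chaperone and splicing genes were also higher in rich cells. Of 25 heat shock and chaperone genes 23 were higher and 1 lower, with a median of 0.46. HSP90AA1, the inducible HSP90, had 838, 1347 and 1657 CPM in rich cells and 474, 873 and 966 CPM in poor cells, higher in 6 of 6 libraries by 0.70 ± 0.06 (adjusted p = 2.57e-08). HSP90AB1, its constitutive relative, had 2528, 2571 and 2769 CPM in rich cells and 1735, 1949 and 2189.7 CPM in poor cells without overlap, a log2 difference of 0.40 (adjusted p = 1.63e-05). HSPD1, the mitochondrial chaperonin, differed by 0.79 (adjusted p = 4.31e-09). Of 40 splicing factors 28 were higher and 1 lower, with a median of 0.27, among them the SR proteins SRSF7 (0.61) and SRSF2 (0.52) and the abundant HNRNPA2B1 (0.41). Of 31 proteasome genes 14 were higher, 1 was lower and the others did not pass, with a median of 0.16. The larger differences were in subunits of the regulatory particle, with PSMD1 at 178, 197 and 234 CPM in rich cells and 98.4, 132 and 172 CPM in poor cells (log2 difference 0.62, adjusted p = 8.03e-07) and PSMD11 higher by 0.53 (adjusted p = 4.59e-06).

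Mitochondrially encoded mRNAs were lower in proportion. Of 13 genes 12 passed the test as lower and 0 as higher, with a median of -0.28. MT-CO2, a subunit of cytochrome c oxidase, had 9494, 11570.3 and 16079 CPM in rich cells and 10727, 13781 and 21334 CPM in poor cells, a log2 difference of -0.26 ± 0.05 (adjusted p = 0.000326). MT-ATP6, of the ATP synthase, had 5980.4, 7561 and 12319.6 CPM in rich cells and 7394, 9352 and 17469 CPM in poor cells, a log2 difference of -0.33 (adjusted p = 2.79e-05). Libraries differed in level, so the groups overlapped, but rich cells were lower in 6 of 6 libraries for both genes. When cells with more than 10% mitochondrial UMIs were left out, MT-CO2 was at -0.048 and MT-ATP6 at -0.0996, and neither passed (adjusted p = 0.405 and 0.08). Both genes are part of the share that set this cut, so smaller differences follow in part from it. MT-ATP8 and MT-ND4L, which overlap their neighbouring genes and whose counts are therefore uncertain, differed by -0.67 and -0.53. Rich cells still held 4.03 times as many MT-CO2 UMIs per cell as poor cells. Of 73 nuclear genes of oxidative phosphorylation 6 were higher and 19 lower, with a median of -0.03. All genes tested had 18.2% higher and 16.9% lower, with a median of -0.01, so the list as a whole differed little from them. NDUFA3, of complex I, and ATP5F1E, of the ATP synthase, were lower, at -0.39 and -0.18 (adjusted p = 0.000245 and 0.00958).

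Among metabolic genes, about as many enzymes of cholesterol synthesis as of glycolysis were higher in rich cells. Of 23 cholesterol genes 12 were higher and 0 lower, with a median of 0.33. DHCR7, the last reductase of the pathway, had 27.5, 48.1 and 64.8 CPM in rich cells and 16.0, 31.1 and 47.7 CPM in poor cells (log2 difference 0.60, adjusted p = 8.16e-05), and SQLE, squalene epoxidase, differed by 0.50 (adjusted p = 0.000209). Of 18 glycolysis genes 12 were higher and 0 lower, with a median of 0.36. LDHA, lactate dehydrogenase, had 795, 947 and 1063 CPM in rich cells and 529, 602 and 866 CPM in poor cells (log2 difference 0.58, adjusted p = 8.03e-07). PGAM1 differed by 0.59, while GAPDH, the most abundant member, had a difference of -0.11 that did not pass (adjusted p = 0.121). MTHFD2, the mitochondrial folate enzyme, had 137, 185 and 207 CPM in rich cells and 53.2, 82.4 and 123 CPM in poor cells without overlap. Its log2 difference of 1.16 ± 0.09 (adjusted p = 2.94e-09) was the largest positive one on the ATF4 and unfolded protein list. Of the 24 tested members of that list 9 were higher and 4 lower, beside 18.2% higher and 16.9% lower among all genes tested. PSAT1, of serine synthesis, differed by 0.77 (adjusted p = 1.48e-05).

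Tubulin and actin-binding genes that passed the test were mostly higher in rich cells. Of 18 tubulins and intermediate filaments 10 were higher and 2 lower, with a median of 0.51. Among all genes tested 18.2% were higher and 16.9% lower. TUBA1C had 614, 775 and 949 CPM in rich cells and 275, 398 and 482 CPM in poor cells without overlap, a log2 difference of 1.06 ± 0.07 (adjusted p = 1.05e-09). TUBB4B, also on the mitosis list, and TUBB6 differed by 1.02 and 0.86 (adjusted p = 1.29e-07 and 1.82e-09), and close sequence similarity among tubulins leaves the split between them uncertain. LMNB1, of the nuclear lamina, was higher by 0.86 (adjusted p = 7.11e-05). VIM, the most abundant member, had 2528, 2804 and 3526 CPM in rich cells and 2189, 2513 and 4072 CPM in poor cells, a difference of 0.11 that did not pass (adjusted p = 0.237) and that turned negative under 3 of the alternatives. Of 30 actin and contraction genes 17 were higher and 3 lower, with a median of 0.24. CNN1, a calponin of contractile cells, was higher by 0.96 (adjusted p = 3.87e-06) over library levels of 6.74, 50.7 and 115 CPM in rich cells and 3.64, 24.0 and 47.7 CPM in poor cells. ACTN1, which crosslinks actin, differed by 0.54 (adjusted p = 3.25e-06), and TMSB10, a small actin-binding protein and the most abundant member, was lower, at -0.27 (adjusted p = 0.000165).

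Transcripts lower in rich cells included RNAs that stay in the nucleus. Of 10 tested nuclear long noncoding RNAs 1 was higher and 5 were lower, with a median of -0.30, beside 16.9% of all genes lower. Among all 1310 long noncoding RNAs tested 35.1% were lower, with a median of -0.37. The median of the nuclear list was thus no lower than that of long noncoding RNAs in general. MALAT1, of nuclear speckles, had 3773, 3890.5 and 5861 CPM in rich cells and 6046, 7856 and 12589 CPM in poor cells. The groups did not overlap, and the log2 difference was -1.04 ± 0.06 (adjusted p = 1.66e-10). Per cell, MALAT1 UMIs were 2.45 times as many in rich as in poor cells, fewer times than the totals. Between 15.3% and 59.6% of poor cells had more than 10% mitochondrial UMIs, and whether such cells had lost cytoplasmic RNA was not tested. NEAT1, the scaffold of paraspeckles, had 471, 782 and 1583 CPM in rich cells and 787, 1261 and 2193 CPM in poor cells, lower in 6 of 6 libraries, at -0.64 (adjusted p = 1.96e-07). FTX, of the X inactivation centre, and MIAT differed by -0.93 and -2.36 (adjusted p = 4.89e-07 and 5.45e-11). MIAT ranged widely between libraries, with 0.284, 3.06 and 26.9 CPM in rich cells and 1.71, 16.7 and 105 CPM in poor cells.

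The 12 largest negative differences among genes with a mean of at least 20 CPM included secreted factors, transcription factors and noncoding transcripts. CXCL14, a secreted chemokine, had 5.98, 59.7 and 196 CPM in rich cells and 23.9, 328 and 782 CPM in poor cells. Although these ranges overlapped, since libraries differed in level, rich cells were lower in 6 of 6 libraries, at -2.53 ± 0.18 on the log2 scale (adjusted p = 1.25e-09). IGFBP5, which binds insulin-like growth factors, had 6.67, 21.9 and 54.9 CPM in rich cells and 66.2, 96.8 and 230.3 CPM in poor cells without overlap, a log2 difference of -2.39 ± 0.15 (adjusted p = 2.18e-10). MAF, a basic leucine zipper transcription factor, had 10.3, 13.7 and 55.5 CPM in rich cells and 57.2, 69.1 and 233 CPM in poor cells without overlap, a log2 difference of -2.33 (adjusted p = 7.6e-14). Averaged over the 6 libraries, these 3 genes had nearly equal UMIs per cell at both ends, with 0.989, 0.922 and 0.937 times as many per rich as per poor cell. These are captured counts, to which libraries with high levels add most, and the efficiency of capture in each droplet was not measured.

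BHLHE41 and DBP, transcription factors of the circadian clock, were lower, at -2.29 and -1.75 (adjusted p = 1.95e-10 and 6.32e-09). BHLHE41 had 4.51, 7.46 and 11.0 CPM in rich cells and 17.1, 37.4 and 54.0 CPM in poor cells, and its groups did not overlap. FBXO32, a muscle-atrophy ubiquitin ligase adaptor induced by FOXO factors, PHLDA1 and LMCD1 were lower, at -2.01, -1.79 and -1.73. The long noncoding transcripts IGFL2-AS1, AL589182.1 and AP000527.1 were lower, at -1.95, -1.92 and -1.92, and reads of the antisense IGFL2-AS1 could not be told apart from those of its partner where strand was not used. CDKN1C, which encodes the p57 inhibitor of cyclin-dependent kinases, was chosen after its values were seen. It had 11.3, 17.5 and 27.7 CPM in rich cells and 32.0, 51.5 and 96.3 CPM in poor cells without overlap (log2 difference -1.63, adjusted p = 1.31e-10). It belongs to the list of cell size and G1 control. Of 28 members tested 8 were higher and 3 lower, beside 18.2% higher and 16.9% lower among all genes tested. CDKN2D, another inhibitor, was higher by 0.75 (adjusted p = 0.000133). KRT14, a basal keratin and the most abundant epithelial marker, had 0.853, 2.98 and 21.2 CPM in rich cells and 6.28, 24.0 and 105 CPM in poor cells, a log2 difference of -2.72 (adjusted p = 3.2e-11). Of 7 epithelial markers tested 1 was higher and 1 lower.

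Most lysosomal genes were lower in rich cells. Of 29 genes of lysosome and autophagy 18 were lower and 1, the protease gene CTSC, was higher, with a median of -0.39. Over all genes tested 16.9% were lower and 18.2% higher. GRN, progranulin, had 33.2, 52.9 and 91.5 CPM in rich cells and 52.5, 107 and 169.9 CPM in poor cells, lower in 6 of 6 libraries, at -0.97 ± 0.08 (adjusted p = 1.79e-08). GPNMB, a lysosomal membrane glycoprotein, had 7.58, 21.0 and 24.9 CPM in rich cells and 14.8, 40.6 and 55.8 CPM in poor cells, a log2 difference of -1.04 (adjusted p = 1.42e-07). TFEB, the transcription factor of lysosomal genes, was lower, at -1.18 (adjusted p = 0.000399) at levels of 1.26, 2.52 and 3.36 CPM in rich cells and 3.93, 5.26 and 6.70 CPM in poor cells. NPC2, the cholesterol carrier of the lysosome and the most abundant member, was lower, at -0.42 (adjusted p = 0.000201). The E-box CACGTG, part of the motif that TFEB is known to bind, was found in 6 of 18 promoters of this list (33.3%), against 9.33% of all genes tested.

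Extracellular matrix genes were split, with more members lower. Of 27 tested 4 were higher and 11 lower, with a median of -0.31, beside 18.2% higher and 16.9% lower among all genes tested. FN1, fibronectin, had 13.7, 34.4 and 54.1 CPM in rich cells and 30.3, 80.3 and 192 CPM in poor cells, a log2 difference of -1.44 ± 0.14 (adjusted p = 1.26e-07). TIMP1, an inhibitor of metalloproteinases, had 367, 555 and 831 CPM in rich cells and 466, 1022 and 1498 CPM in poor cells, a log2 difference of -0.70 (adjusted p = 2.7e-06), and COL6A1 was lower, at -0.75 (adjusted p = 2.79e-05). Of 10 osteoblast and mesenchymal markers 1 was higher and 4 were lower. TNFRSF11B, osteoprotegerin, was lower, at -1.36 (adjusted p = 3.77e-06), in 5 of 6 libraries. RUNX2, the osteoblast transcription factor, and COL1A1 were lower, at -0.62 and -0.35 (adjusted p = 0.000171 and 0.0286), but COL1A1 missed the threshold after thinning, in the HaloTag libraries alone, and without any 1 of HaloTag 25R, HaloTag 70R, Dendra2 25R or Dendra2 70R, at differences between -0.33 and -0.27.

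More members were lower than higher in rich cells on the lists of p53 targets, immediate early genes, apoptosis genes and interferon-stimulated genes, beside 16.9% lower and 18.2% higher among all genes tested. Of 26 p53 targets 2 were higher and 8 lower, with TP53INP1 lower, at -1.46, GDF15 at -0.87 and TP53I3 at -0.60 (adjusted p = 6.62e-08, 0.000523 and 4.33e-06). Of 23 immediate early genes 4 were higher, a share near that of all genes, and 7 lower. FOS, of the AP-1 complex, had 10.1, 14.4 and 47.2 CPM in rich cells and 22.2, 34.2 and 118 CPM in poor cells, a log2 difference of -1.29 ± 0.10 (adjusted p = 5.67e-09). JUNB and EGR1 were lower, at -1.15 and -0.66 (adjusted p = 4.31e-09 and 5.65e-05). FOSL1, another AP-1 member, named after its values were seen, went the other way with 31.2, 40.5 and 59.0 CPM in rich cells and 11.3, 15.7 and 31.4 CPM in poor cells, a log2 difference of 1.22 (adjusted p = 1.42e-07). Of 19 genes of apoptosis and cell damage 1 was higher and 5 lower, with TXNIP, the thioredoxin inhibitor, at -1.22 and BCL2L11, which encodes BIM, at -0.997 (adjusted p = 5.22e-06 and 2.25e-06). Of 14 interferon-stimulated genes that could be tested among 25, 1 was higher and 9 were lower, with a median of -0.53. STAT2 and IFIT1 were lower, at -0.98 and -0.93 (adjusted p = 4.26e-06 and 0.0004), at medians of 9.14 and 3.15 CPM in rich cells and 16.6 and 6.19 CPM in poor cells. IFITM3, the most abundant, was lower, at -0.32 (adjusted p = 0.00737), in 5 of 6 libraries.

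Genes of RNA polymerase II itself showed small differences. Of 12 subunit genes 3 were higher and 1 lower in rich cells, with a median of 0.09, beside 18.2% higher and 16.9% lower among all genes tested. POLR2A, which encodes RPB1, had 197, 241 and 361 CPM in rich cells and 157, 207 and 272 CPM in poor cells, higher in 6 of 6 libraries by 0.32 ± 0.06 (adjusted p = 0.000413). With each cell thinned to 2000 UMIs it was 0.18 and did not pass (adjusted p = 0.188). POLR2H and POLR2D were higher by 0.45 and 0.41 (adjusted p = 4.74e-05 and 0.00768), POLR2D with a higher CPM in 4 of 6 libraries, and POLR2L, the most abundant subunit, was lower, at -0.21 (adjusted p = 0.00536). Of 34 genes of elongation and the CTD kinases 8 were higher and 1 lower, with a median of 0.14. The higher members of both lists thus made up a share near that of all genes, and the genes named here are single genes. SSRP1 and SUPT16H, which form the histone chaperone FACT, were higher by 0.59 and 0.53 (adjusted p = 4.05e-06 and 2.78e-06). SSRP1 had 193, 197 and 214 CPM in rich cells and 116, 126 and 169 CPM in poor cells without overlap.

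Since most rich cells were called G2/M, the comparison was repeated among cells called G1, ranked within them. It used between 45 and 169 rich and between 45 and 169 poor cells per library. Of 8236 genes tested there 616 (7.48%) were higher and 552 (6.7%) lower in rich cells. The growth lists again had more members higher than lower. MYC targets had 24 of 29 higher and 0 lower with a median of 0.49, ribosome biogenesis 13 of 34 higher and 0 lower with a median of 0.36, and chaperones 12 of 24 higher and 0 lower with a median of 0.25. Cholesterol genes had 7 of 22 higher and 0 lower with a median of 0.35. MYC was higher by 1.11 (edgeR adjusted p = 6.63e-07), MTHFD2 by 1.11 (adjusted p = 3.67e-08) and EIF4EBP1 by 0.92 (adjusted p = 1.32e-07). CXCL14, BHLHE41, PHLDA1 and FN1 were lower, at -2.65, -2.13, -2.04 and -1.62 (adjusted p between 2.52e-20 and 5.5e-12). MALAT1 was lower, at -0.79 (adjusted p = 3.89e-15), whereas NEAT1 had a difference of 0.11 that did not pass (adjusted p = 0.236). Among mitochondrially encoded mRNAs 11 of 13 were lower, with a median of -0.30.

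Counts were smaller or of another direction for other lists among cells called G1. Ribosomal protein genes had 8 higher and 2 lower of 79, with a median of 0.03. The shares over all 8236 genes tested there were 7.48% higher and 6.7% lower. Of 26 p53 targets 2 were higher and 0 lower, and of 40 splicing factors 3 were higher and 3 lower. Lysosomal genes had 7 of 27 lower and 1 higher, with a median of -0.24. Cells called G1 were chosen by low scores of both cycle lists, yet 23 of the 35 G2 and mitosis genes still tested were higher in the rich ones and 0 lower, with a median of 0.74. G1/S genes had 22 of 31 higher and 0 lower, with a median of 0.82. Cells near a phase boundary are part of this set, and their share of these differences was not tested. Fewer cells and genes entered, and whether a difference was smaller in G1 than over all phases was not tested.

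The size of the difference depended on the tag, or on the sequencing campaign that went with it, for 213 genes (1.64%), tested as an interaction of state with tag. In 174 genes (1.34%) the difference was more positive in HaloTag than in Dendra2 libraries and in 39 (0.299%) more negative. Leaving out HaloTag 25R gave 330 such genes, leaving out HaloTag 52R 49, Dendra2 25R 47 and Dendra2 70R 129, so single libraries moved it by more than 1.5 times. It was 140 with rich cells of the 90th to the 96th percentile, 323 with the top and bottom 20%, 56 after thinning, 79 with DESeq2 and 4 among cells called G1, where fewer genes were tested. Of 54 G2 and mitosis genes 31 were more positive in HaloTag, where the list's median was 1.71, against 0.98 in Dendra2. CDK1 differed by 2.70 in HaloTag and 1.67 in Dendra2 libraries (adjusted p of the interaction = 0.00124), and TOP2A by 2.23 in HaloTag and 1.42 in Dendra2 (adjusted p = 0.00268). G1/S genes had medians of 0.91 in HaloTag and 0.30 in Dendra2, with 17 of 43 more positive in HaloTag. Among poor cells, G2/M calls made up 24.0% to 27.8% where the tag was HaloTag and 35.5% to 51.7% where it was Dendra2, without overlap, and their part in the interactions was not tested. The rich minus poor difference in G2/M calls was 43.9 points in HaloTag and 33.7 points in Dendra2 (exact permutation p = 0.1, the smallest that 3 against 3 libraries allow).

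Histone genes took 4 of the 5 largest positive interactions among genes with a mean of at least 20 CPM. Of 21 tested 9 were more positive in HaloTag and 0 more negative, with list medians of 0.67 in HaloTag and -0.39 in Dendra2. Over all genes tested 1.34% were more positive and 0.299% more negative. HIST1H1A, a linker histone of dividing cells, differed by 0.59, 1.56 and 0.92 in HaloTag 25R, 52R and 70R and by -1.42, -0.70 and -0.38 in Dendra2 25R, 52R and 70R. The tags did not overlap, and the interaction was 1.93 ± 0.21 (adjusted p = 9.18e-07), but -0.19 among cells called G1. HIST1H3B differed by between 1.12 and 1.85 in HaloTag and between -0.70 and -0.02 in Dendra2 libraries (interaction 2.00, adjusted p = 4.67e-05). HIST1H2AH and HIST1H4C had interactions of 1.84 and 1.67 (adjusted p = 0.000551 and 0.000227), both of which missed the threshold with DESeq2, and HIST1H2AH also without HaloTag 52R, at 1.17. Among cells called G1 the interaction of HIST1H4C was -0.012. DTL, the substrate receptor of a replication-coupled ubiquitin ligase, averaged 1.83 in HaloTag and 0.19 in Dendra2 (interaction 1.63, adjusted p = 0.000171).

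Genes with a more negative difference in HaloTag had smaller interactions. HADHB, of mitochondrial fatty acid oxidation, had 80.4, 83.7 and 69.7 CPM in rich cells of HaloTag 25R, 52R and 70R, against 122, 118 and 93.6 CPM in poor cells. In Dendra2 25R, 52R and 70R it had 69.7, 80.9 and 63.5 CPM in rich cells, against 59.4, 74.7 and 61.1 CPM in poor cells. Rich cells were lower in all 3 HaloTag libraries and higher in all 3 Dendra2 libraries (interaction -0.74, adjusted p = 0.00232). CTSA, a lysosomal carboxypeptidase, averaged -0.68 in HaloTag and 0.05 in Dendra2 (interaction -0.73, adjusted p = 0.00391), and CTSB, CTSD and CTSL of the same list, named after their values were seen, were also more negative in HaloTag. FBXO3, a ubiquitin ligase adaptor, C9orf85 and ARG2, mitochondrial arginase, had interactions of -0.87, -0.77 and -0.77 (adjusted p = 0.0245, 0.033 and 0.0344). Each of these 3 lost its call under at least 4 of the 6 omissions of a library, at interactions between -0.92 and -0.58.

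**Figure D5:**
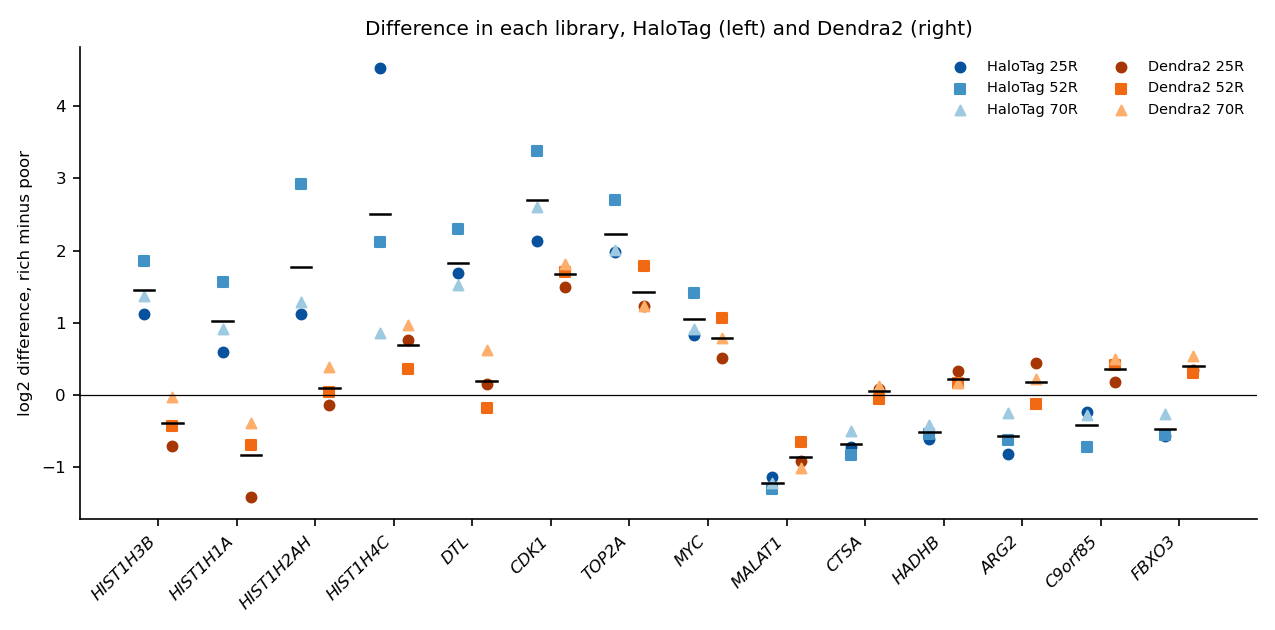
Log2 difference, rich minus poor, of 14 genes in each library (y axis), with the 3 HaloTag libraries left (blue) and the 3 Dendra2 libraries right (orange) of each gene; bars are the means of the 3 libraries. HIST1H3B and HIST1H1A lie above 0 in HaloTag and below 0 in Dendra2, HADHB and FBXO3 the other way round, and CDK1, TOP2A and MYC lie above 0 in all 6 libraries.

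The length of the CTD was tested in the same way with 2 libraries per length. At an adjusted p under 0.05, 2 of 13026 genes (0.0154%) differed between lengths. SCG5, which encodes the secretogranin 7B2, differed by 1.22 and 0.46 in the 25R libraries (HaloTag, Dendra2), by -0.33 and -0.27 in the 52R libraries and by -0.69 and -1.35 in the 70R libraries (adjusted p = 0.0403). Among cells called G1 its 25R minus 52R difference was -0.56, against 1.31 over all phases. Its levels were 5.74, 20.6 and 93.6 CPM in rich cells and 5.27, 26.0 and 60.6 CPM in poor cells. SCG5 was thus higher in rich cells of both 25R libraries and lower in those of the other 4. CXCL8, interleukin 8, chosen after its values were seen because its mean is under 20 CPM, differed by -1.63 and -2.02 in the 25R libraries, by -0.50 and 0.63 in the 52R libraries and by 1.97 and 1.33 in the 70R libraries (adjusted p = 0.0403). Its levels were 2.46, 4.88 and 7.86 CPM in rich cells and 1.77, 4.79 and 13.3 CPM in poor cells. Both genes lost their call without HaloTag 25R and without Dendra2 70R, where SCG5 differed between 25R and 52R by 0.75 and 1.28 and CXCL8 by -2.06 and -1.82. CXCL8 also lost it without HaloTag 70R or Dendra2 25R, at -1.81 and -1.63. Leaving out HaloTag 25R or Dendra2 70R left 0 genes past the threshold, while leaving out Dendra2 52R left 9 and testing without a filter on low counts 23.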

How the data were processed

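Single-cell RNA was captured with the 10x Genomics 3′ v3.1 chemistry, per the labels' protocols. The authors made the deposited UMI counts using Cell Ranger; the file headers give its version as 6.1.2, and the submitters' processing notes name bcl2fastq and GRCh38. A count is 1 UMI, and the 6 deposited matrices hold called cells only. Both runs of a HaloTag library are merged in its matrix. No treatment of doublets or free RNA by the authors is stated in the labels.

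Cells were kept, ranked and summed within each library as the text describes. The row of the tag itself was left out of totals. For tests, genes were split by odd and even rows of the feature table into 2 sets, and each gene's counts were summed over cells ranked by the other set, which shared between 96.8% and 98.7% of its cells with the ranking on all genes. The 12 sums were tested with edgeR 4.0.16 in R 4.3.3 (quasi-likelihood test, TMM factors, genes passing its filter on low counts, library as a block, 5 residual degrees of freedom). Rich and poor cells of a library share its cells, capture and sequencing, so the library is the block by design, and no other pairing was used. Levels are CPM of the cells ranked on all genes. Single values used exact sign-flip permutations over the 6 libraries. Scripts used Python 3.11.15, and were tested on simulated data.

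Members, the 32 gene lists and the tests were chosen with earlier results of these data known. Named genes are up to 12 per direction with the largest difference, an adjusted p under 0.05, a mean of at least 20 CPM and 1 direction in all 6 libraries, then up to 4 called members per list in the list's main direction with its most abundant member, and up to 5 genes per direction of each interaction. The mitochondrial and ribosomal shares were tested in cells ranked without those genes, which lowers the share in rich cells by construction, so 2 further values are given. The share within the set of genes that did not rank the cells was added after seeing the data. Alternatives were another ranking, thinning, other percentiles, other filters on cells and genes, cells called G1 only, library totals, DESeq2 1.42.0, no block, each tag alone and each library left out. Intervals for single cells are not given, and counting error is part of the spread between libraries.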

Additional observations from a re-analysis of the deposited data

Results flagged for a closer look

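In groups of 4 to 10 libraries, 6 of 126 checked values stood apart from the other libraries by Dixon's test at its 95% level, which chance alone does in about 1 of 20 groups. The mitochondrial share differed by -3.57 points between rich and poor cells of HaloTag 70R. SQLE, squalene epoxidase, differed by 1.16 in HaloTag 52R, and DBP, a clock transcription factor, by -0.55 in Dendra2 25R. EIF5, a translation initiation factor, differed by 0.47 in Dendra2 25R, the least positive value of the 6. IFITM3, an interferon-induced membrane protein, differed by 0.30 in Dendra2 25R and was lower in rich cells of the other 5 libraries. IGFL2-AS1 differed by -1.49 in HaloTag 25R, the least negative value of the 6.

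The difference between rich and poor cells was itself different between HaloTag and Dendra2 libraries, by the edgeR interaction test, for the genes named in the text. The interaction was 2.00 for HIST1H3B, 1.93 for HIST1H1A, 1.84 for HIST1H2AH and 1.67 for HIST1H4C, all histones, and 1.63 for DTL. It was -0.87 for FBXO3, -0.77 for C9orf85, -0.77 for ARG2, -0.74 for HADHB and -0.73 for CTSA. HIST1H3B had log2 differences of 1.12, 1.85 and 1.37 in HaloTag 25R, 52R and 70R and of -0.70, -0.43 and -0.02 in Dendra2 25R, 52R and 70R. Its level was lower in every HaloTag library, at most 23.2 CPM in rich cells, than in every Dendra2 library, at least 44.1 CPM in rich cells. The sequencing campaigns went with the tags, so the 2 cannot be told apart. Between CTD lengths, the 25R minus 52R difference was 1.31 for SCG5 and -1.81 for CXCL8, with 2 libraries per length.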

How the results depend on the processing

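Of the 4565 genes called in rich against poor cells, DESeq2 gave all 4565 the same sign and called 3264, and the ranking on all genes gave 4553 the same sign. With each cell thinned to 2000 UMIs 692 genes were higher and 727 lower, and among cells called G1 616 were higher and 552 lower, with fewer genes tested in both. Without the library as a block (no replicate block) 1505 were higher and 1193 lower, and in the Dendra2 libraries only 1377 were higher and 1139 lower. With 1 library left out the counts ran between 1844 and 2120 higher and between 1749 and 2282 lower. Genes differing between tags numbered 56 after thinning, 140 for rich cells from the 90th to the 96th percentile, 4 among cells called G1, 79 with DESeq2, 323 with the top and bottom 20%, and between 47 and 330 with 1 library left out. Genes differing between CTD lengths numbered 4 with cells ranked on all genes, 0 after thinning, 0 with poor cells from the 10th to the 20th percentile, 0 with library totals, 1 with rich cells from the 90th to the 96th percentile, 1 with DESeq2, 0 with the top and bottom 20%, 7 among cells called G1, 23 with no filter on low counts, and between 0 and 9 with 1 library left out. For tags and CTD lengths, the 20% groups, the other filters on cells and the test with no filter on low counts were added after seeing the data. In cells with at most 10% mitochondrial UMIs the mitochondrial share differed by -0.11 points (exact permutation, adjusted p = 0.4375), the ribosomal protein share by -3.22 points, genes per cell by 53.7 and G2/M calls by 40.4 points (adjusted p = 0.0521 for these 3, whose unadjusted exact p stayed at the smallest possible). For the mitochondrial share this filter cuts on the tested value itself, so a smaller difference follows in part from the filter. The difference in S calls, not past the threshold, was 0.53 points with the top and bottom 20% and 2.60 points in the HaloTag libraries only. Among named genes, VIM was -0.053 with poor cells from the 10th to the 20th percentile, -0.018 at 10% mitochondrial UMIs and -0.065 in the HaloTag libraries only. Among cells called G1, NEAT1 was 0.11, the tag interaction was -0.19 for HIST1H1A and -0.012 for HIST1H4C, and the 25R minus 52R difference of SCG5 was -0.56. Apart from the thinning and the restriction to G1, which test fewer genes, the cause of these changes was not tested. Each genotype is 1 library, doublets and free RNA were not measured, and the poor cells' depth limits what can be said of genes under a few CPM.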
